A study of Mus musculus with 3 samples.

Results

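The genes described are Lmx1b and 9 genes whose products build or modulate LIM complexes: the LIM homeodomain genes Lmx1a, Lhx2 and Lhx9, the LIM-domain binding genes Ldb1 and Ldb2, the LIM-only genes Lmo2 and Lmo4, and the single-stranded DNA binding protein genes Ssbp2 and Ssbp3. Chromatin immunoprecipitation with sequencing (ChIP-seq) was used to map where LMX1B, the protein of Lmx1b, sits on chromatin of limb buds from C57BL/6 mouse embryos at embryonic day 12.5. The labels give 2 runs with 48 limb buds in each, fore- and hindlimbs combined. There were 2 ChIP samples with the polyclonal antibody written BMO8 or BM08 in the labels, which are called the first ChIP (marked wild-type in its track name) and the validation ChIP (titled a BMO8 validation, with no genotype in its track name). The remaining sample, input DNA pooled from wild-type and mutant chromatin, had no list of intervals and entered no comparison. Whether the ChIP samples came from separate chromatin is not stated, and each is a single sample, so no value below has a replicate error and no difference between the lists was tested.

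Each ChIP sample is a list of intervals (peaks called by the authors) with a summit position and a whole-number summit score, whose unit is not stated. An interval was assigned to a gene by position alone. Its midpoint had to lie in the gene's domain, meaning the gene body plus the flanks that reach as far as the neighbouring protein-coding genes, with a limit of 1 Mb a side. By this rule 7 of the 1287 intervals of the first ChIP and 33 of the 4501 intervals of the validation ChIP fell in the 10 domains. An interval is called shared where it had 1 bp or more in common with an interval of the other list. Coordinates are on mm10, counted from 1.

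LIM homeodomain proteins bind DNA through a homeodomain and carry a pair of LIM domains that bind partner proteins. LDB proteins dimerize and bind LIM domains, so that they bridge LIM homeodomain proteins bound at separate sites. LIM-only proteins have LIM domains but no DNA-binding domain and can compete for LDB, while SSBP proteins bind LDB and protect it from degradation. In the limb bud, Lmx1b gives dorsal mesenchyme its identity, Lhx2 and Lhx9 act in outgrowth and patterning, and Ldb1 is their shared cofactor. Limb enhancers through which LMX1B acts on its own gene have been described upstream of Lmx1b.

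Promoter sequence is shown first for the member whose start site was covered by an interval, for its closest paralogue, which had none, and for the member with the next nearest interval to a start site among those with an entry in the promoter table. The sequences are the 250 bases before a RefSeq start site on GRCm38.p6, written 5′ to 3′ on the strand of the gene. Capitals mark matches on either strand to TAAT (a homeodomain core, also found within the longer site TAATTA), to the E-box of basic helix-loop-helix proteins, CANNTG, and to the GC box, GGGCGG.
Lmx1b, minus strand, chr2:33641099-33641348: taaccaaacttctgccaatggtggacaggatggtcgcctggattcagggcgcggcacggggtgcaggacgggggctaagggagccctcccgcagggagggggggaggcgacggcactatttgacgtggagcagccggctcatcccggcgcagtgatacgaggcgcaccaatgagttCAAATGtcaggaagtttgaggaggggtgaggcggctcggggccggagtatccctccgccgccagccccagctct
Lmx1a, plus strand, chr1:167689308-167689557: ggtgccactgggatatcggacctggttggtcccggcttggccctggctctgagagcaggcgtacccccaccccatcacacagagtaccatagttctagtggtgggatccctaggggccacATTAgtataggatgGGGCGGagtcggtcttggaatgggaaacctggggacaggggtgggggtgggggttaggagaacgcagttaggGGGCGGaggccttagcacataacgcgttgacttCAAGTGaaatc
Ssbp3, plus strand, chr4:106911220-106911469: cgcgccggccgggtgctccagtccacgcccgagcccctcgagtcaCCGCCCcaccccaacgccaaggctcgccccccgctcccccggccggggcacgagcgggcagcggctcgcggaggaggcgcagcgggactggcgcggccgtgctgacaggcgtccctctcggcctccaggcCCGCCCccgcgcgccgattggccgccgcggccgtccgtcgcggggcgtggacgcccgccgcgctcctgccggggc

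The Lmx1b window held 1 CANNTG, at 74 to 69 bases before the start site, and no match to TAAT or to the longer TAATTA, none to GATAA (the core of GATA factor sites) and none to GGGCGG. The Lmx1a window held 1 TAAT, 1 CANNTG and 2 GGGCGG, and the Ssbp3 window 2 GGGCGG. Among all 32851 promoter windows of this length in the RefSeq table, 66.2% held CANNTG, 54.9% held TAAT, 4.84% held TAATTA, 22.6% held GATAA and 32.7% held GGGCGG. The single E-box match in the Lmx1b window is therefore of a kind that most promoters hold, and the windows that lack a motif show only that its letters are not there. Of the 10 members, 8 matched an entry, with 14 windows among them, and Ldb2 and Lmo2 did not. The Lmx1b window was the only one of the 14 that an interval overlapped, and that interval was in the validation ChIP. Of all windows, 1.42% were overlapped by a validation interval and 0.770% by a first-ChIP interval.

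Members with an interval in both lists were Lmx1b, Ldb2 and Ssbp2. These 3 of 10 had a first-ChIP interval in the domain, where 6.04% of 21775 protein-coding genes did, and in each of them at least 1 was shared, where 3.41% of genes had a shared interval. A validation interval lay in the domain of 7 of 10 members, where 15.1% of genes had one. Lhx9, Lmo2, Lmo4 and Ssbp3, 4 of these 7, had validation intervals only. That was the usual state: 2327 of the 3284 protein-coding genes with a validation interval (70.9%) had no first-ChIP interval. Lmx1a, Lhx2 and Ldb1 had none in either list. Longer domains can hold more intervals, and the members' domains had a median length of 256 kb, against 67.3 kb for all protein-coding genes. Of the 9 members with a domain of 150 kb or more, all but Ldb1, 3 had a first-ChIP interval, 7 a validation interval and 3 a shared one. Among the 6007 genes with domains of that length these shares were 14.3%, 35.4% and 9.77%. The threshold of 150 kb was chosen after the domain lengths had been seen, and the members were chosen with earlier results of these data known, so the counts are a description.

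**Figure D1:**
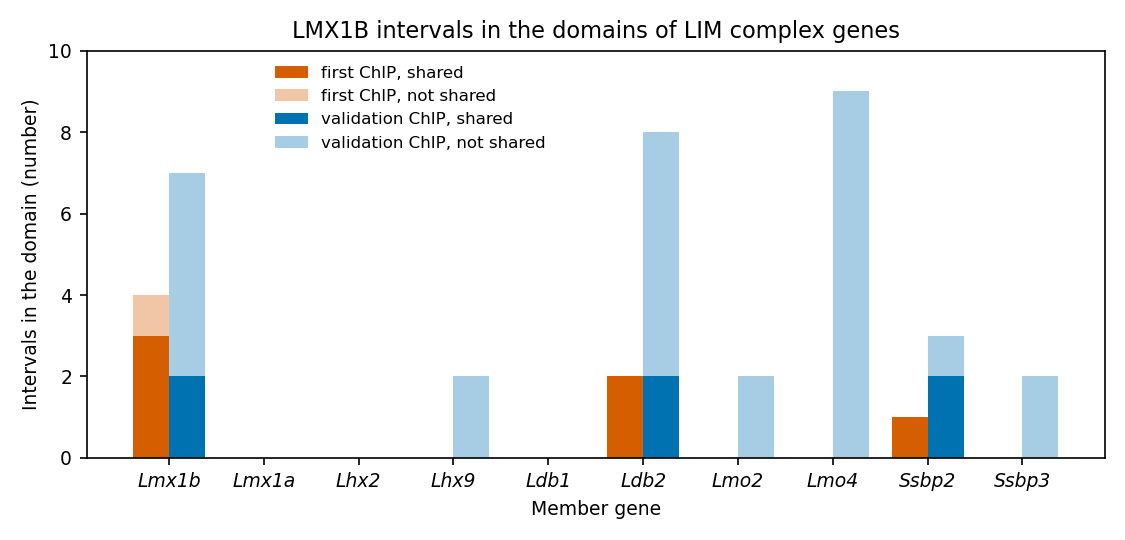
Number of intervals (y axis) whose midpoint lies in the domain of each member gene (x axis), for the first ChIP (orange) and the validation ChIP (blue); dark parts of the bars are shared intervals and light parts are intervals in 1 list. First-ChIP intervals stand at Lmx1b, Ldb2 and Ssbp2, while the tallest validation bar, 9 at Lmo4, has no shared part. Bars are not scaled to domain length, and the Lmo4 domain is the longest (1241 kb).

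Lmx1b carried the most first-ChIP intervals of the members, 4, and was the member with the highest score in the validation ChIP. Of 21775 protein-coding genes, 73 had 4 or more first-ChIP intervals, and 138 had as many validation intervals as its 7 or more. These counts are over domains of all lengths, and an interval between neighbouring genes can count for each of them. The gene lies on the minus strand of chromosome 2 (33560965 to 33641208), and its domain of 261 kb runs from Zbtb43 to Mvb12b. The strongest interval of the domain was shared and lay 59.8 kb upstream of the start site. Its summit was listed at 33700896 in both lists. Most summits of each list lay at multiples of 16 bp, so this position is not read to the base. The score was 38 in the first ChIP (33700481 to 33701323) and 41 in the validation ChIP (33700454 to 33701995). Only 41 intervals of the first list and 12 of the validation list had a higher score. The validation interval, at 1542 bp, also covered a second first-ChIP interval at 33701591 to 33701930 (score 20), whose summit was 784 bp from the validation summit.

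A further shared pair lay 65.1 kb upstream of the Lmx1b start site, with scores of 19 in the first ChIP (33705754 to 33706277) and 26 in the validation ChIP (33705862 to 33706671). Its summits were 32 bp apart, and 104 validation intervals, 2.31% of the list, had a higher score. The 3 shared first-ChIP intervals thus lay within 5.80 kb of each other. In each list the pair nearer to the start site outscored the farther one. The fourth first-ChIP interval, at 33486606 to 33486955 (score 18), was on the other side of the gene, 154 kb downstream of the start site and 18.2 kb from Zbtb43, and was not shared.

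The other 5 validation intervals of Lmx1b were not shared, and their scores of 8 to 17 were below those of the shared pair. The interval over the promoter shown above (33641016 to 33641350, score 10) had its summit 70 bp upstream of the start site. At 335 bp it was among the narrowest of its list, at the 1.46th percentile of width. It also overlapped the promoter window of C130021I20Rik, a long noncoding RNA gene. A wider interval of 921 bp (score 12) had its summit 25.2 kb downstream of the start site, inside the gene body; exons and introns were not resolved. Upstream, one interval had its summit at 41.3 kb (score 8) and another pair at 75.7 kb (score 10) and 78.0 kb (score 17). The first of that pair had its midpoint in the long noncoding RNA gene 9430024E24Rik.

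The upstream intervals of Lmx1b beyond 59 kb lay nearer to Mvb12b than to Lmx1b. The midpoint of the strongest first-ChIP interval was 59.7 kb from the Lmx1b body and 29.1 kb from the Mvb12b body. If each interval was given only to the nearest protein-coding gene body, no first-ChIP interval and 3 validation intervals were left at Lmx1b. With 50 kb on each side of the gene body the numbers were the same, 0 and 3. Position alone therefore does not tie the shared intervals to Lmx1b.

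**Figure D2:**
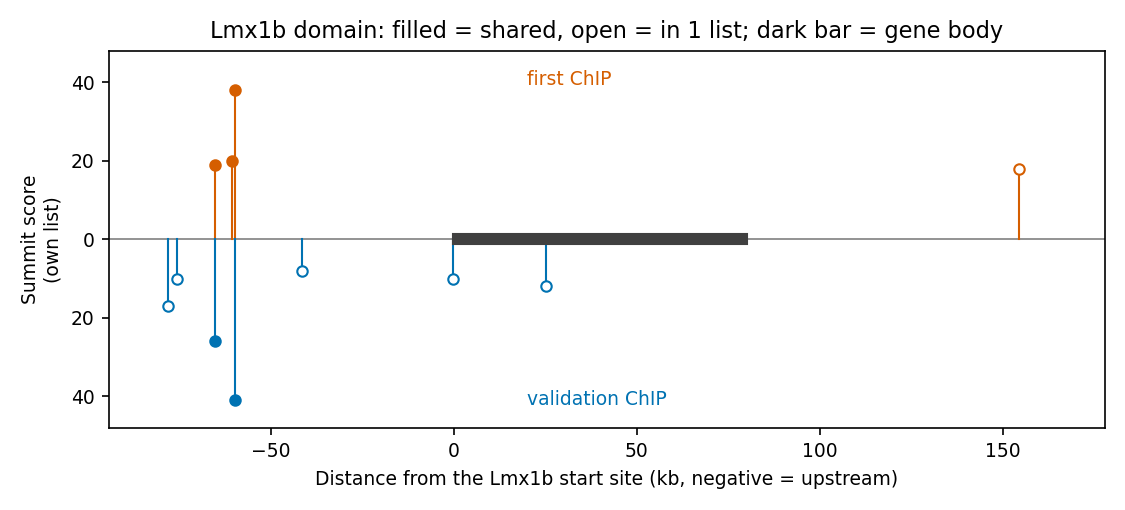
Summit scores (y axis, each in its own list, first ChIP upward in orange and validation ChIP downward in blue) against distance from the Lmx1b start site (x axis, kb, negative upstream) over the Lmx1b domain; filled points are shared intervals, open points are in 1 list, and the dark bar is the gene body. The shared intervals form one group 59.8 to 65.1 kb upstream, and the interval at the start site is in the validation ChIP only.

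Of the other LIM homeodomain members, Lhx9 had validation intervals only, and Lmx1a and Lhx2 had no interval. Lhx9, on the minus strand of chromosome 1 (138825186 to 138848839), had 2 validation intervals with scores of 9 and 8. One lay at 138674151 to 138674559, 151 kb from the gene body, and was nearer to Nek7 (54.6 kb). The other, at 138844505 to 138844868, was inside the gene body with its summit 2.26 kb upstream of the start site in the promoter table. Their scores were at the 15.9th and 4.52nd percentiles of the validation list, and neither was shared. Lmx1a, the closest relative of Lmx1b, had no interval in its 480 kb domain, and the nearest validation and first-ChIP intervals were 337 kb and 859 kb from its body. Lhx2 had none in its 196 kb domain, with the nearest at 243 kb and 635 kb. An empty domain shows only that no interval was listed there.

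Ldb2 and Ldb1, the bridging cofactors, differed in what was listed around them. Ldb2, on chromosome 5 (44435955 to 44799759) in a domain of 1203 kb, had 2 first-ChIP intervals and 8 validation intervals. Both first-ChIP intervals were shared. One lay 427 kb beyond the gene end with the higher coordinate, with scores of 44 in the first ChIP (45226270 to 45226913) and 14 in the validation ChIP (45226227 to 45227035). Its first-ChIP score was the highest of all members, with 30 intervals, 2.33% of the list, above it. In the validation list 934 intervals, 20.8%, scored above its partner. The lists differ in length, so these ranks show no change between the samples. The summits of the pair were 32 bp apart.

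The second shared pair of Ldb2 lay 267 kb beyond the same gene end, with scores of 19 (45066303 to 45066630) and 12 (45065975 to 45066695). Both pairs, and a further validation interval at 45055409 to 45055948 (score 12), had their midpoints in D5Ertd615e, a long noncoding RNA gene between Ldb2 and Qdpr. Neither pair lay within 250 kb of the gene body. The interval 427 kb away was nearer to Qdpr (207 kb) than to Ldb2. The other unshared validation intervals had scores of 9 to 17. They included 1 inside the Ldb2 body, at 44585463 to 44585953 (score 10), and 1 at 44801074 to 44801609 (score 10), 1.58 kb beyond the gene end. Those at 44297705 to 44298121 and 44304341 to 44304824 were nearer to Tapt1, at 66.8 and 73.4 kb, than to Ldb2. Ldb1 on chromosome 19 (46031525 to 46048145) sits among close neighbours in a domain of 50.4 kb, the shortest of the members. It had no interval, and the nearest validation interval was 104 kb from its body. The numbers of intervals at Ldb1 and Ldb2 are thus counts over very different lengths.

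The LIM-only genes had validation intervals only, as did 70.9% of all protein-coding genes with a validation interval. Lmo4, on the minus strand of chromosome 3 (144188530 to 144205255), had 9, the most of any member, with scores of 9 to 15 and a median of 11, which is also the median of the list. None was shared, and the nearest first-ChIP interval was 1950 kb from the gene body. Of the 86 protein-coding genes with 9 or more validation intervals, 5 had no first-ChIP interval. That count is over domains of all lengths, and the Lmo4 domain, at 1241 kb, was the longest of the members. Its 7.25 validation intervals per Mb were below those of Lmx1b (26.8), Lmo2 (10.3), Lhx9 (8.61) and Ssbp3 (7.97). They were above those of Ldb2 (6.65) and Ssbp2 (5.81). The Lmo4 intervals fell into a group of 3 about 175 kb upstream (144378132 to 144382702, scores of 15, 9 and 10), a group of 3 at the gene and 3 scattered farther downstream. In the group at the gene, 1 interval was in the gene body (144197993 to 144198645, score 10), and those at 144185549 to 144186138 (score 10) and 144173779 to 144174732 (score 12) lay 2.69 kb and 14.3 kb past its downstream end. The 3 scattered intervals lay 274 to 619 kb from the gene body, with scores of 11 to 12. The farthest of them was nearer to 4930519L02Rik (528 kb) than to Lmo4. The upstream group was nearer to Hs2st1, at 47.2 to 51.2 kb, than to Lmo4. Its intervals with scores of 15 and 9 had their midpoints in Gm34434, a long noncoding RNA gene. The one with a score of 9 overlapped the promoter window of Gm34434. The midpoint of the one with a score of 10 was 0.341 kb from that gene. Lmo2 on chromosome 2 (103957903 to 103981878) had 2 unshared validation intervals. One at 103927599 to 103928245 (score 16), 30.0 kb from the gene body, was in the upper part of its list, with 13.4% of intervals above it. The other, at 103864176 to 103864775 (score 9), was nearer to Caprin1 than to Lmo2.

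Of the SSBP genes, Ssbp2 had a shared interval and Ssbp3 did not. Ssbp2, on the plus strand of chromosome 13 (91460305 to 91706175), had 1 first-ChIP interval at 91374237 to 91374581 (score 19). It overlapped a validation interval at 91374117 to 91374752 (score 16), and their summits were 48 bp apart, 86.6 and 86.7 kb upstream of the start site. Both had their midpoints in the long noncoding RNA gene A830009L08Rik. An unshared validation interval lay 6.06 kb farther upstream (91368126 to 91368620, score 10). The remaining validation interval, at 91224239 to 91225373 (score 19), counted for Ssbp2 by a narrow margin. It crossed the end of Atg10, and its midpoint lay 81 bp outside Atg10, 235 kb from the Ssbp2 body. The first-ChIP interval that it overlapped had its midpoint 27 bp inside Atg10 and so did not count. With summits in place of midpoints, this pair changed sides, and Ssbp2 had 2 first-ChIP and 2 validation intervals.

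Ssbp3, on the plus strand of chromosome 4 (106911470 to 107049694), had 2 validation intervals, neither shared. One, at 106909497 to 106910001 (score 10), had its summit 1.65 kb upstream of the start site, and its nearer edge was 1.22 kb from the promoter window shown above. The other, at 106827789 to 106828133 (score 9), was nearer to Acot11 than to Ssbp3. Both scores were below the median of the validation list, 11.

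**Figure D3:**
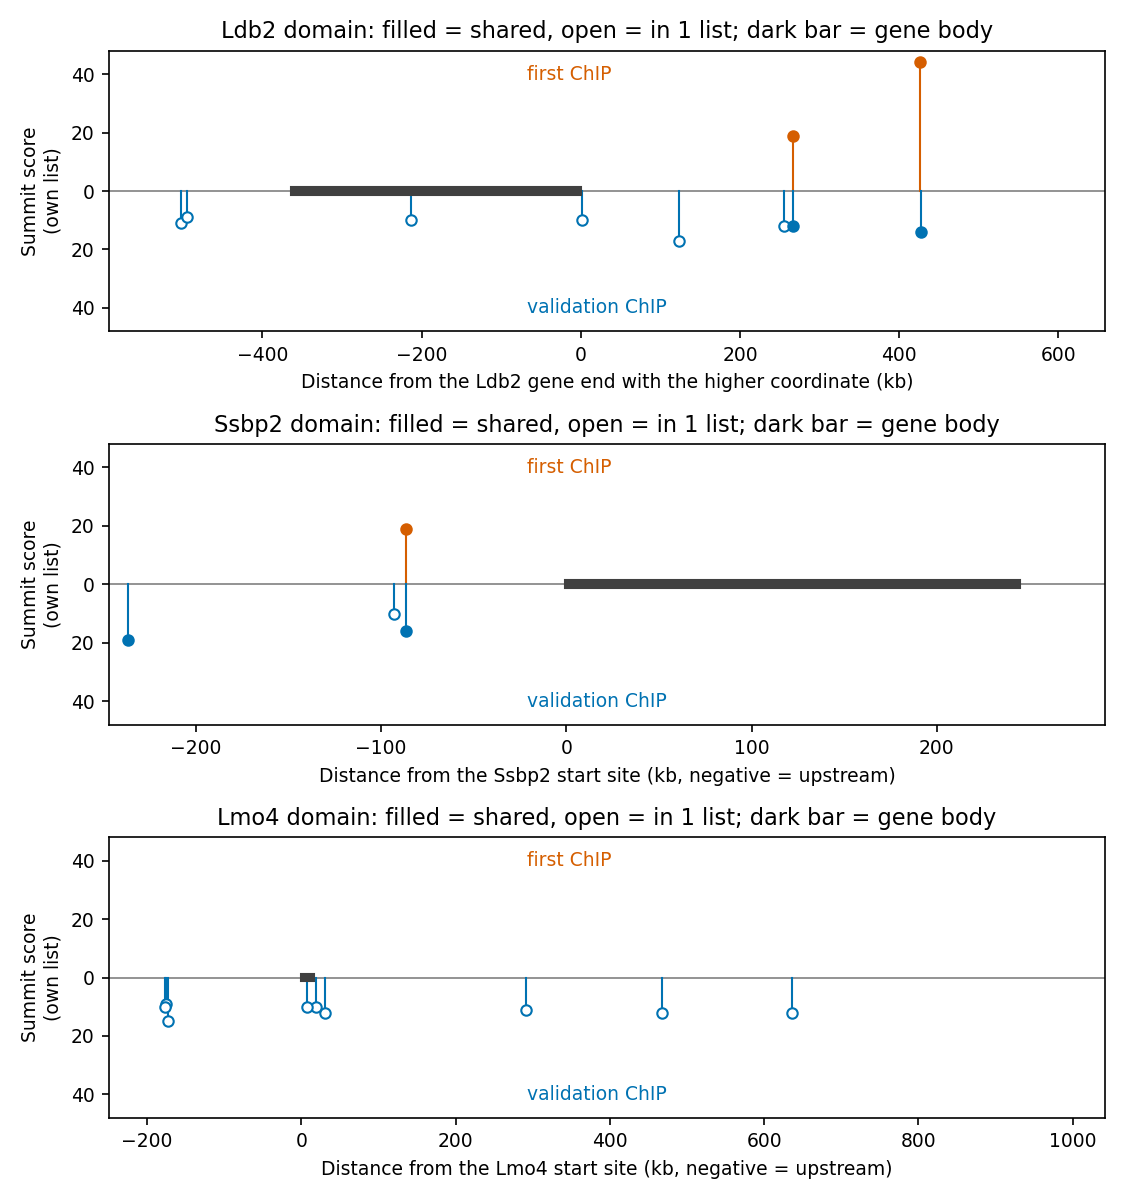
Summit scores (y axis, each in its own list, first ChIP upward in orange and validation ChIP downward in blue) across the domains of Ldb2, Ssbp2 and Lmo4 (x axis, kb; from the gene end with the higher coordinate for Ldb2, from the start site for the others); filled points are shared, open points are in 1 list, and dark bars are gene bodies. Shared intervals lie 267 and 427 kb from Ldb2 and 86.6 kb from Ssbp2, the filled validation point 237 kb upstream of Ssbp2 has its first-ChIP partner just outside the domain, and Lmo4 has open points only.

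The 10 domains together spanned 4.63 Mb and held 1.51 first-ChIP and 7.13 validation intervals per Mb. Over the domains of all protein-coding genes, each base counted once, the densities were 0.485 and 1.70 per Mb. Without Lmx1b the members' densities were 0.687 and 5.96 per Mb, so the first-ChIP density moved most when that gene was left out. In the first ChIP 6 of 7 member intervals were shared (85.7%, 95% Wilson interval 48.7 to 97.4), against 54.9% of the whole list (52.2 to 57.6). In the validation ChIP 6 of 33 were shared (18.2%, 8.61 to 34.4), against 15.6% (14.5 to 16.7). These confidence intervals cover counting error only and treat neighbouring intervals as independent, which they may not be.

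Scores of the members' intervals spread over much of their lists. In the first ChIP they ran from 18 to 44 with a median of 19, where the list ran from 12 to 86 with a median of 20. In the validation ChIP they ran from 8 to 41 with a median of 11, where the list ran from 6 to 55 with the same median. The 6 shared validation intervals had a median score of 17.5 and the 27 unshared ones of 10, and in the whole list these medians were 16 and 11. Of the members' 27 unshared validation intervals, 11 were at or above the list's median score. The 3800 unshared intervals of the whole list had a median equal to that score, so the members' share was not higher than the list's. The members' intervals were 328 to 843 bp wide in the first ChIP and 335 to 1542 bp in the validation ChIP. All 40 summits lay at a multiple of 16 bp, as did 96.3% and 94.4% of the summits in the first and validation lists, so summit positions are not read to the base.

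**Figure D4:**
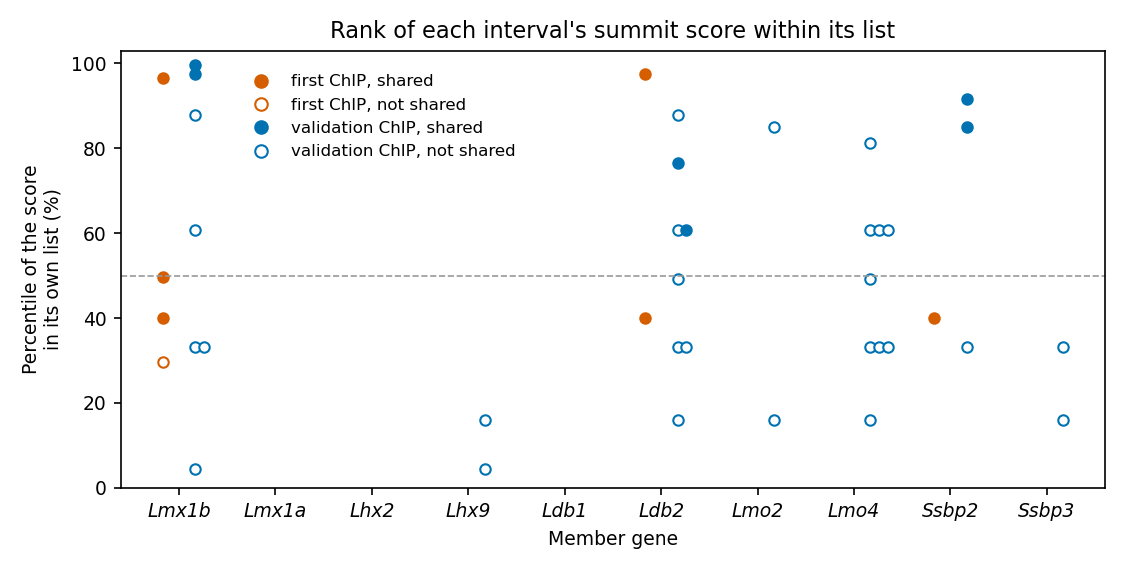
Percentile of each interval's summit score within its own list (y axis, ties counted at their middle) for each member gene (x axis), with orange for the first ChIP, blue for the validation ChIP, filled points for shared intervals, and points of equal score set side by side. The highest points are both shared validation intervals of Lmx1b (97.5 and 99.7) and 1 first-ChIP interval each of Lmx1b (96.5) and Ldb2 (97.6); the other first-ChIP points, both Lhx9 points and both Ssbp3 points lie under the dashed line at 50%.

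Most member intervals were away from gene bodies of the members. No first-ChIP interval and 5 of 33 validation intervals had a midpoint in the body of the member whose domain held them. Long noncoding RNA genes held 3 of 7 first-ChIP midpoints (42.9%, 95% Wilson interval 15.8 to 74.95) and 12 of 33 validation midpoints (36.4%, 22.2 to 53.4), against 13.9% and 13.1% of the whole lists. D5Ertd615e alone accounts for 2 of the 3 and 3 of the 12. The whole lists also count intervals in bodies of other protein-coding genes, where the members' domains stop. The shares are therefore over unlike sets and do not show a trait of the members. For 20 of the 40 intervals, the nearest protein-coding gene was the member itself. The counts in gene bodies and by nearest gene were not made over all genes. Whether they are usual for these lists is therefore not known. A list deposited with the validation ChIP and named Active Regions held 735 of the 1287 first-ChIP intervals. Separately, 707 of the 1287 first-ChIP intervals were shared. The 6 shared member intervals were in Active Regions, while the unshared one near Zbtb43 was not. How far that list coincides with the shared intervals is not given here, so it is no separate support for them.

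The LIM homeodomain, LIM-only and cofactor genes outside the 10 members had no shared interval, 0 of 12, where 3.41% of all protein-coding genes had one, so this count is near the background. None of the other 8 LIM homeodomain genes (Lhx1, Lhx3, Lhx4, Lhx5, Lhx6, Lhx8, Isl1 and Isl2) had a first-ChIP interval. Of them 3 had a validation interval: Lhx1 and Lhx5 had 1 each, and Isl1, which acts in early hindlimb development, had 2. The Isl1 domain was 1553 kb long, and the median domain of these 8 genes was 175 kb. Over all protein-coding genes, 6.04% had a first-ChIP interval and 15.1% a validation interval, with a median domain of 67.3 kb. Among genes with domains of 150 kb or more, these shares were 14.3% and 35.4%. Among Lmo1, Lmo3, Ssbp4 and Rlim, which encodes a ubiquitin ligase for LDB proteins, none had a first-ChIP interval, while Lmo1 had 3 validation intervals and Ssbp4 had 1. Of 12 genes for partners of LIM-only, LDB and SSBP proteins, the E-protein genes Tcf3, Tcf4 and Tcf12 had shared intervals, with 1, 5 and 2, and were the only ones with an interval in either list. The domain of Tcf4 was 1496 kb long. The GATA genes Gata1, Gata2 and Gata3, Tal1, Lyl1, Bcl9, Bcl9l, Pygo1 and Pygo2 had none. Of 20 genes for LIM proteins of the cytoskeleton or with other roles, 1 had shared intervals, Pdlim5 with 2. Csrp1 had a first-ChIP interval that was not shared. Csrp2 and Lpp had validation intervals only, 2 and 1.

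Genes most like Lmx1b in their numbers of intervals were ranked by the summed difference in first-ChIP, validation and shared counts, over these 2 samples. No gene had the same 3 numbers. Elac2, Emx2, Tcf7l2, Bmp4 and Dcdc2c each differed by 1, and all had longer domains, from 479 kb for Elac2 to 1116 kb for Dcdc2c. Lmx1b reached its 4 first-ChIP and 7 validation intervals in 261 kb, the shortest domain of these genes.

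The labelled tissue was looked at through marker genes, although interval lists do not measure expression. Of 8 limb mesenchyme markers, 4 had a shared interval in the domain (Prrx1, Prrx2, Tbx4 and Msx1). So did 1 of 4 blood markers (Ptprc), 1 of 4 endothelial markers (Cdh5), 1 of 4 ectoderm markers (Grhl2), and 0 of 4 each of nerve and Schwann cell and of skeletal muscle markers, where 3.41% of all protein-coding genes did. The lists differed in median domain length, from 45.4 kb for blood and 54.8 kb for nerve and Schwann cell markers to 233 kb for limb mesenchyme and 333 kb for endothelial markers, so their counts are not on equal terms. Domains of the markers with a shared interval were 1211 kb (Ptprc), 1069 kb (Cdh5) and 358 kb (Grhl2). For the limb mesenchyme markers they were 299 kb (Prrx1), 61.2 kb (Prrx2), 216 kb (Tbx4) and 297 kb (Msx1). Among all genes with domains of 150 kb or more, 9.77% had a shared interval. Sequencing depth is unknown, since the lists carry no read counts.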

How the data were processed

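ChIP-seq with the LMX1B antibody BMO8 was carried out on pooled limb buds. Chromatin was fixed with 1% formaldehyde for 15 min and sheared to 300 to 500 bp, per the labels' protocols. BWA and the build mm10 are named in the submitters' processing notes. How intervals were called, and whether the input was used, is not given in the sources used here. The summit score of each interval is the authors' value, deposited as a whole number with no stated unit or normalization, and was used only to describe and rank intervals within 1 list. The first-ChIP intervals repeated in the validation sample's file differed in 1 summit, outside the members' domains, and were counted once.

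Gene bodies came from a RefSeq table of GRCm38.p6, whose coordinates are those of mm10, with 49599 genes used and 21775 protein-coding. Genes on autosomes and X that start before 3 Mb were left out. Start sites, strands and promoter sequences came from a RefSeq promoter table. Percentiles count ties at their middle. Confidence intervals are 95% Wilson intervals. Python 3.11.15, pandas 2.3.3 and SciPy 1.17.1 were used, and the placement and overlap functions were tested on simulated data. The members and lists were chosen with earlier results of these data known. The genes named were all members with their intervals and bordering genes, up to 5 genes most like Lmx1b, and members of the listed families with an interval. No test was planned or run, since each group had 1 sample. Motif counts around summits were planned and not run, since that needs a genome sequence.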

Additional observations from a re-analysis of the deposited data

How the results depend on the processing

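Of 32 values under alternative settings, 21 stayed within 1.5-fold. Where sharing required an overlap of at least 50% of both intervals, 4 first-ChIP intervals in the members' domains were shared, in place of 6. These were 2 at Lmx1b, 1 at Ldb2 and 1 at Ssbp2. Keeping intervals that scored no lower than their list's median, 3 first-ChIP, 17 validation and 3 shared first-ChIP intervals were left in the members' domains, and none of the first ChIP at Ssbp2. With 50 kb on each side of the gene body, members with a first-ChIP interval, members with a shared interval, first-ChIP intervals and shared first-ChIP intervals all stood at 0, and validation intervals at 11. With each interval given to the nearest protein-coding gene body, there were 2 first-ChIP, 18 validation and 2 shared first-ChIP intervals, at Ldb2 and Ssbp2 in the first ChIP. These settings keep fewer intervals by construction. With domains of at most 250 kb beyond the gene body, Ldb2 lost both shared intervals. The planned motif counts near summits (TAATTA and CANNTG, with 2 other windows) were not run. Without read counts, the depth behind an interval, or behind its absence, is unknown.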
